A study of Mus musculus with 3 samples.

Results

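The endothelin system was read from 5 of the 31053 genes in the count tables, all of them taken by gene symbol. They were the ligand genes Edn1 and Edn3, the gene for endothelin-converting enzyme 1 (Ece1), and the receptor genes Ednra and Ednrb. Endothelins are short peptides, best known as strong constrictors of blood vessels, that are cut from inactive precursors by membrane-bound converting enzymes. They act on a pair of G protein-coupled receptors, of which the type A receptor is typical of the contractile cells around vessels and the type B receptor of endothelium and of glia derived from the neural crest. In dorsal root ganglia (DRGs), satellite glial cells (SGCs) wrap the cell bodies of sensory neurons and lie close to a dense capillary bed, so that vascular ligands and glial receptors occur in the same small tissue.

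The data were single-cell RNA profiles of L3 and L4 DRGs from male C57BL/6J mice at postnatal week 13, made to follow transcription after spared nerve injury (SNI), in which some branches of the sciatic nerve are cut. There was 1 library of untreated (naïve) mice, 1 library from 7 days after SNI of both hindlegs and 1 library from 14 days after it. Each library pooled 8 DRGs of 2 mice, so the mice of a library cannot be told apart and no condition had a replicate. Transcripts were captured in droplets with the 10x Chromium 3′ v3 chemistry, and a unique molecular identifier (UMI) let each captured molecule be counted once.

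The naïve library held 23107376 UMIs in 3748 cell barcodes, the day 7 library 22343246 UMIs in 3281 barcodes and the day 14 library 36550911 UMIs in 4908 barcodes. Barcode sequences shared between libraries numbered 1 for naïve and day 7, 6 for naïve and day 14, and 2 for day 7 and day 14. After removal of cells with fewer than 500 genes or more than 20% mitochondrial UMIs, and of 90 doublets called by Scrublet, 3123 naïve, 2650 day 7 and 3799 day 14 cells remained. Their median depths were 3059, 3972 and 4174 UMIs.

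Cells were assigned to classes by marker genes, none of which was an endothelin gene, and 8326 of the 9572 kept cells (87.0%) received a class. SGCs numbered 640 (naïve), 408 (day 7) and 541 (day 14), with median depths of 5760.5, 7737.5 and 7640 UMIs. Endothelial cells numbered 289, 204 and 317, with medians of 3817, 4882 and 5747 UMIs. Mural cells, which are pericytes and smooth muscle, numbered 123, 100 and 173, with medians of 3340, 4061 and 3464 UMIs. The other classes large enough to compare were myelinating Schwann cells (1317, 1116 and 1606), non-myelinating Schwann cells (101, 64 and 109), fibroblasts (73, 60 and 143), macrophages (65, 212 and 253) and neurons (99, 103 and 67). Fabp7, itself one of the SGC markers of the gate, had a UMI in 99.5% of gated SGCs. Of the gated cells, 98.5% also lay in a cluster of the same name when all cells were clustered without the endothelin genes. The clusters were named by the same marker lists, so this share is no independent check of the gate. For non-myelinating Schwann cells it was lower, at 228 of 274.

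Levels are given as CPM, the UMIs of the gene scaled to a common total over all UMIs of the class, and as the share of cells with at least 1 UMI of the gene. Intervals are 95% and cover counting error only: exact Poisson for CPM, Clopper-Pearson for shares, and exact conditional binomial for ratios of CPM. Differences between mice are in none of them. With 0 UMIs, the level that 3 counts would give is quoted as a limit.

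The 5 genes differed in where their UMIs lay. Of 1025 Edn1 UMIs in kept cells, 90.3% were in endothelial cells, and of 64 Edn3 UMIs 68.8% were in fibroblasts. Ece1 was spread more widely, with 34.5% of its 7582 UMIs in endothelial cells, 28.9% in SGCs and 9.34% in neurons. Mural cells held 71.1% of the 895 Ednra UMIs, and SGCs held 74.8% of the 35889 Ednrb UMIs. Cells without a class, where Ednrb had 630 (naïve), 417 (day 7) and 347 CPM (day 14), held 20.1% of Ednrb and 18.1% of Ece1 UMIs. Of them, 455 lay in clusters named as SGCs, so the SGC shares given here are those of gated SGCs only. These shares also depend on how many cells of a class were captured and how deeply they were read. On summed CPM over 8 classes, which sets cell numbers aside, the leading class held 99.1% for Edn1, 92.8% for Edn3, 41.1% for Ece1, 90.3% for Ednra and 74.8% for Ednrb. Among 14257 genes with at least 50 UMIs, 1.25% were as concentrated in a single class as Edn1, 5.56% as Edn3, 30.8% as Ece1, 6.64% as Ednra and 12.5% as Ednrb.

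**Figure D1:**
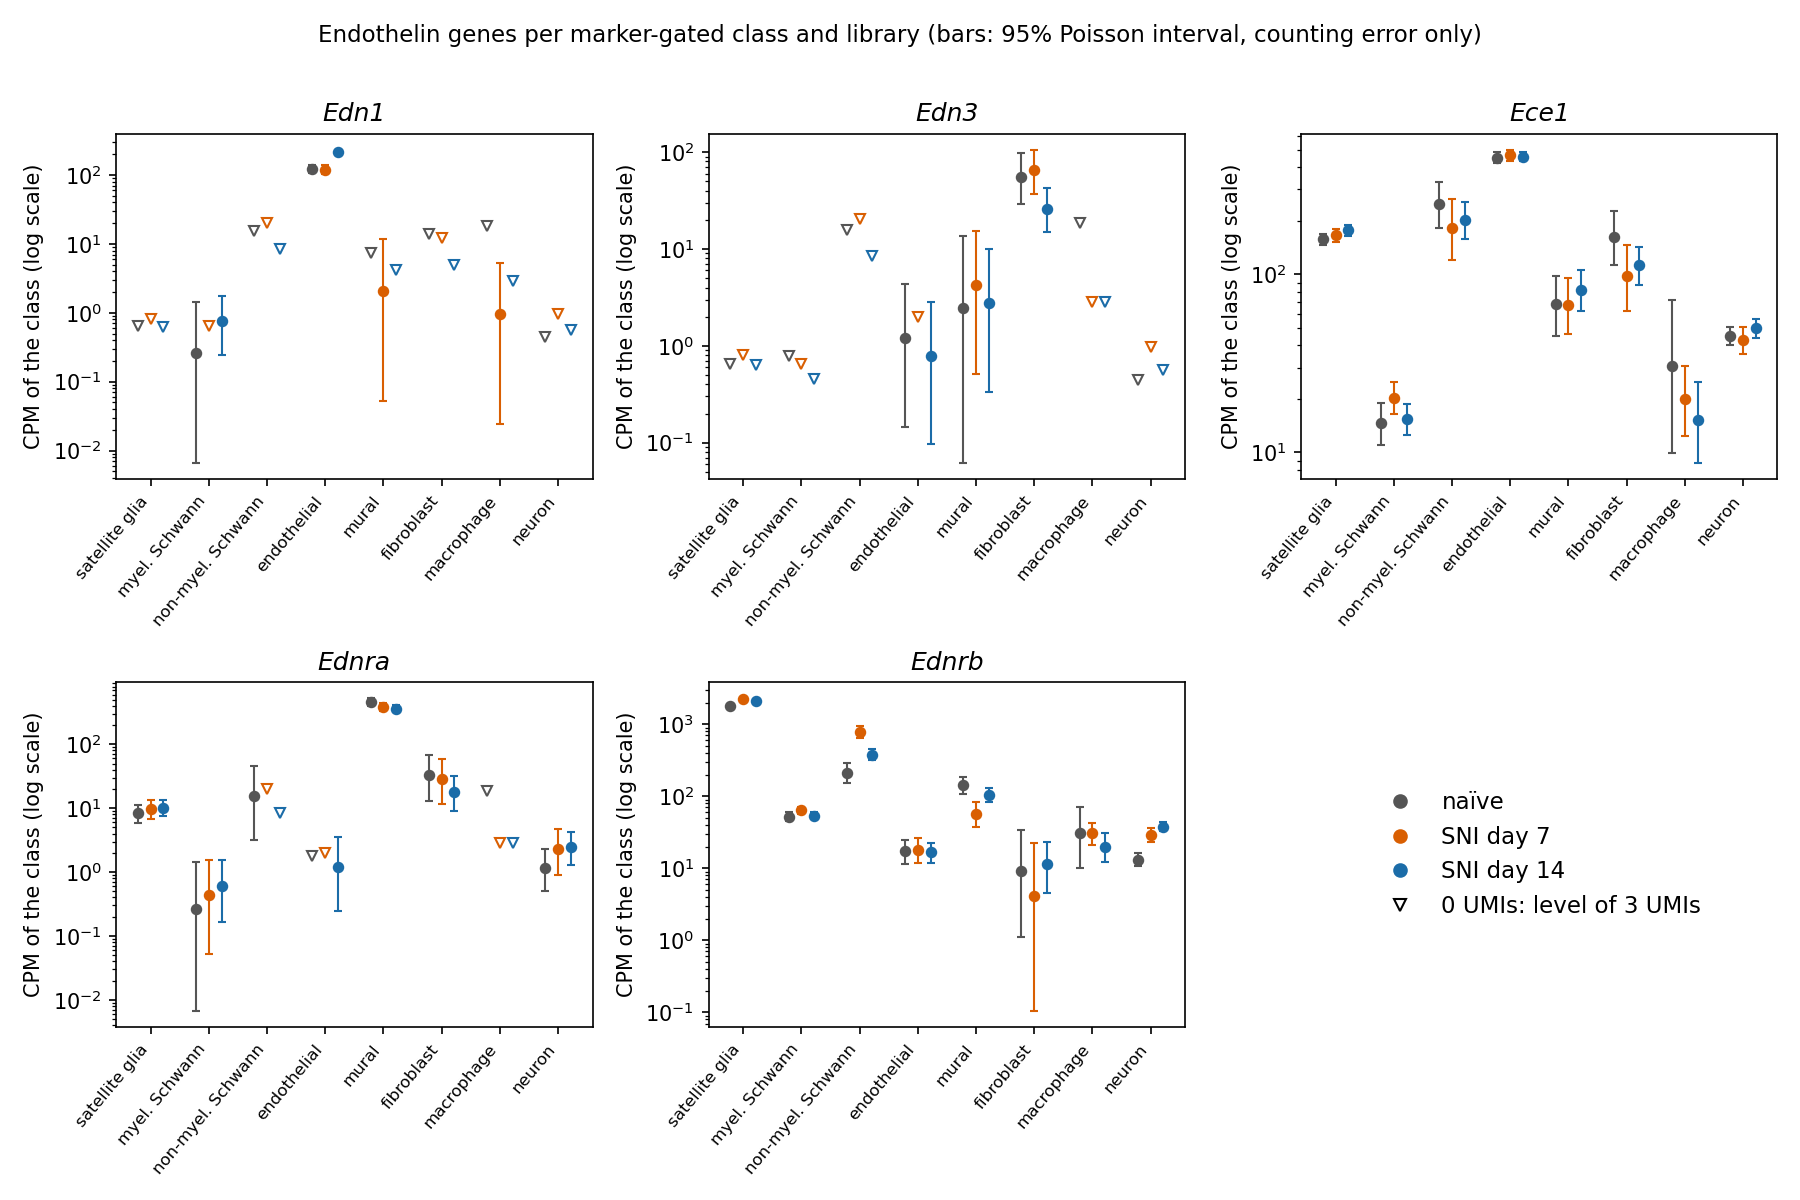
CPM (log axis) of each endothelin gene in 8 marker-gated classes, with the 3 libraries in separate colours, bars for the 95% Poisson interval and open triangles for the level of 3 UMIs where none was counted. Edn1 stands out in endothelial cells, Edn3 in fibroblasts, Ednra in mural cells and Ednrb in SGCs, whereas Ece1 is present in every class shown.

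Edn1 encodes the precursor of endothelin-1, the main vascular ligand. In endothelial cells it reached 122 CPM (106 to 140) in the naïve library, 120 CPM (103 to 139) at day 7 and 214 CPM (197 to 233) at day 14, from 205, 180 and 541 UMIs. The day 14 library was thus high, and the naïve and day 7 libraries did not differ beyond counting error. The log2 ratio over naïve was -0.03 (-0.33 to 0.27) at day 7 and 0.81 (0.58 to 1.05) at day 14, the latter a fold of 1.75.

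The share of endothelial cells with an Edn1 UMI was 18.0% (13.7 to 22.9), 25.5% (19.7 to 32.0) and 33.8% (28.6 to 39.3), from 52, 52 and 107 cells, so that day 14 was above naïve and day 7 overlapped both. Depth and the median mitochondrial share (5.40%, 6.82% and 7.04%) were also higher in the injured libraries, and after each cell was thinned to 2000 UMIs the shares were 13.1%, 16.4% and 21.0%. In SGCs, which were deeper than endothelial cells, 0 of 640, 0 of 408 and 0 of 541 cells had a UMI, with limits of 0.642, 0.810 and 0.632 CPM. Few Edn1 UMIs lay in the other classes: myelinating Schwann cells had 1, 0 and 5 UMIs, mural cells 0, 1 and 0, macrophages 0, 1 and 0, and neurons, fibroblasts and non-myelinating Schwann cells none. In neurons the limits were 0.439, 0.972 and 0.562 CPM.

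Positive endothelial cells were unequal. The highest cell held 20 Edn1 UMIs in naïve, 19 at day 7 and 25 at day 14, and cells with 5 or more UMIs numbered 17, 9 and 40. The 5 highest cells together held 63, 70 and 117 UMIs, so a small number of cells carried a sizeable part of the naïve and day 7 sums.

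Endothelial cells fell into 3 clusters. The large cluster, led by Slco1a4 and Ly6c1, had 87.5, 75.2 and 152 CPM of Edn1, a log2 ratio over naïve of -0.22 (-0.60 to 0.16) at day 7 and 0.80 (0.51 to 1.09) at day 14. A small cluster led by Nebl and Vegfc, with the arterial markers Sema3g in 96.3% and Bmx in 81.3% of its cells (53.5% and 42.1% in the large cluster), had 588, 367 and 533 CPM. In this arterial-marker cluster Edn1 was lower at day 7 than in naïve, at a log2 ratio of -0.68 (-1.16 to -0.20), and at day 14 the ratio of -0.14 (-0.52 to 0.25) did not differ beyond counting error. Its Edn1 level exceeded that of the large cluster 6.72-fold (5.01 to 8.96), 4.88-fold (3.56 to 6.66) and 3.50-fold (2.96 to 4.14) in the 3 libraries. The mural marker Rgs5 had 441, 699 and 55.6 CPM in the arterial-marker cluster and 55.2, 29.5 and 37.5 CPM in the large one. The part of RNA from mural cells in these Edn1 ratios was not tested. The arterial-marker cluster made up 4.84% of gated endothelial cells in the naïve library (14 cells), 11.8% at day 7 (24 cells) and 11.4% at day 14 (36 cells), and the part of this shift in the class-wide ratio was not tested. The remaining cluster, led by Fabp4 and Bmp4, had only 11, 7 and 10 cells, with 248, 639 and 150 CPM and log2 ratios of 1.36 (0.21 to 2.54) and -0.73 (-2.30 to 0.70).

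**Figure D2:**
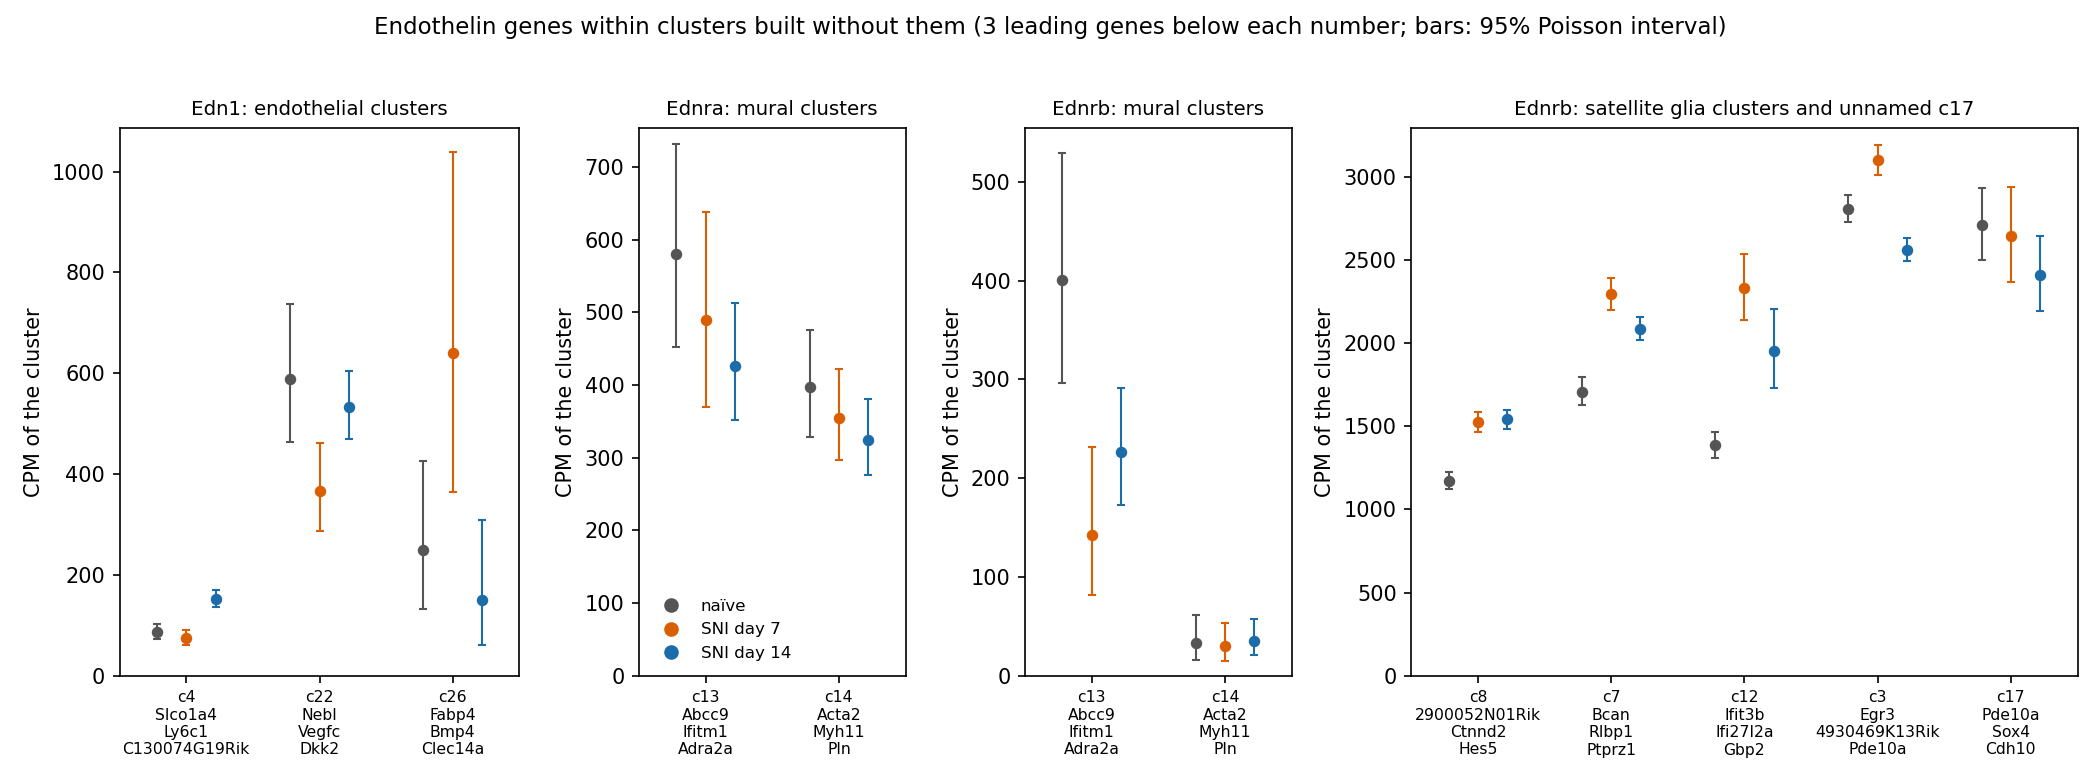
CPM of Edn1, Ednra and Ednrb (linear axes) in the clusters of the class that holds most of them or, for Ednrb, also in mural clusters; each cluster was built without the endothelin genes and is labelled by its number and 3 leading genes, with bars for the 95% Poisson interval. Edn1 at day 14 is above naïve in c4 and not in c22, and Ednrb differs more between mural clusters c13 and c14 than between libraries.

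Edn3 encodes endothelin-3, a ligand that prefers the type B receptor. It was scarce: fibroblasts had 12, 16 and 16 UMIs, or 55.7 CPM (28.8 to 97.3) in naïve, 65.2 CPM (37.3 to 106) at day 7 and 26.1 CPM (14.9 to 42.4) at day 14. Day 14 was the lowest library, with an interval that overlapped both others. The log2 ratio was 0.23 (-0.94 to 1.44) at day 7 and -1.10 (-2.27 to 0.12) at day 14.

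A UMI of Edn3 was seen in 6 of 73, 9 of 60 and 11 of 143 fibroblasts, or 8.22%, 15% and 7.69%, at median depths of 2557, 3373 and 3382 UMIs. After thinning to 2000 UMIs the shares were 6.35%, 7.99% and 4.48%. In the cluster of fibroblasts led by Dcn and Lum, which had 17, 17 and 22 Edn3 UMIs, the day 14 log2 ratio of -1.22 (-2.20 to -0.21) excluded 0. The SGC marker Fabp7 had 53.2, 46.5 and 427 CPM in this cluster, against 65.0, 40.8 and 79.9 CPM in gated fibroblasts. Ednrb had 2, 2 and 78 UMIs there, and the part of this shift in the Edn3 ratio was not tested. Endothelial cells had 2, 0 and 2 Edn3 UMIs and mural cells 1, 2 and 2. SGCs, both Schwann cell classes, macrophages and neurons had none in any library, which in SGCs allows up to 0.642, 0.810 and 0.632 CPM. The fibroblast level exceeded the mural level 22.9-fold in naïve (3.39 to 980), 15.5-fold at day 7 (3.64 to 139) and 9.36-fold at day 14 (2.20 to 84.0), intervals whose width shows how few UMIs were available.

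Ece1 encodes the protease that turns big endothelin into the active peptide. In endothelial cells it had 453 CPM (421 to 487) in naïve, 466 CPM (432 to 502) at day 7 and 458 CPM (432 to 486) at day 14. The 3 libraries did not differ beyond counting error, with log2 ratios of 0.04 (-0.11 to 0.19) and 0.02 (-0.12 to 0.15). The share of positive endothelial cells was 71.6%, 79.9% and 83.0%, and 54.4%, 58.3% and 57.4% after thinning to 2000 UMIs. For comparison, myelinating Schwann cells, where Ece1 was low, had 3.87%, 8.06% and 5.92% positive cells at median depths of 2498, 3605.5 and 3574.5 UMIs.

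In SGCs Ece1 had 157 CPM (146 to 169), 165 CPM (153 to 179) and 177 CPM (165 to 189). Day 14 lay slightly above naïve, at a log2 ratio of 0.17 (0.02 to 0.31), and day 7 did not differ beyond counting error, at 0.07 (-0.08 to 0.23). Positive SGCs made up 59.2%, 70.8% and 73.4%, but 27.1%, 28.4% and 30% once depth was made equal. The endothelial level was 2.88-fold (2.60 to 3.19), 2.82-fold (2.52 to 3.14) and 2.59-fold (2.37 to 2.84) the SGC level.

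Between these classes lay non-myelinating Schwann cells, with 249, 182 and 202 CPM of Ece1. Their level was above that of SGCs in naïve, 1.58-fold (1.15 to 2.12), and did not differ from it beyond counting error at day 7 (1.10-fold, 0.720 to 1.62) or day 14 (1.14-fold, 0.886 to 1.46). Fibroblasts had 163, 97.9 and 112 CPM, equal to SGCs in naïve within counting error and below them at day 7 and day 14. Further down the order came mural cells with 68.1, 67.4 and 82.2 CPM and neurons with 45.2, 42.8 and 50 CPM, whose intervals overlapped in naïve and at day 7 and not at day 14. Macrophages (30.7, 20 and 15.2 CPM) and myelinating Schwann cells (14.6, 20.3 and 15.4 CPM) were lowest and not separable from each other in any library. The large macrophage cluster led by C1qa had 18.8, 7.24 and 12.2 CPM. A small cluster led by Cd209a, Ear2 and Napsa had 91.6, 120 and 89.6 CPM from 15, 18 and 42 cells. It passed 3 of 6 macrophage markers, none of them among its leading genes, which include Flt3 and Irf8, so its class is uncertain.

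Ligand and enzyme were often found in the same endothelial cells. Of cells with an Edn1 UMI, 84.6%, 78.8% and 95.3% also had an Ece1 UMI, against 68.8%, 80.3% and 76.7% of cells without one. Positive cells were deeper, at medians of 5789, 6705.5 and 9752 UMIs against 3418, 4416 and 4625.5, and as CPM the Ece1 levels were 458, 437 and 507 against 451, 480 and 414. The part of depth in the shares was not tested.

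Ednra encodes the type A receptor, which binds endothelin-1 and contracts vessel walls. Mural cells had 462 CPM (398 to 532) in naïve, 389 CPM (335 to 450) at day 7 and 363 CPM (321 to 410) at day 14, from 190, 185 and 261 UMIs. Naïve was the highest library, and the injured libraries did not differ from each other beyond counting error. The log2 ratio was -0.25 (-0.55 to 0.05) at day 7 and -0.35 (-0.62 to -0.07) at day 14.

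The share of mural cells with an Ednra UMI was 72.4% (63.6 to 80.0), 79.0% (69.7 to 86.5) and 71.7% (64.3 to 78.3), and 55.9%, 53.2% and 53.0% after thinning. Unlike the CPM, the share was thus not highest in naïve before thinning. In endothelial cells 0 of 289, 0 of 204 and 3 of 317 cells had a UMI, at median depths of 3817, 4882 and 5747 UMIs. Mural cells with at most 10% mitochondrial UMIs gave larger drops, with log2 ratios of -0.87 and -0.85 from 58 naïve, 35 day 7 and 45 day 14 cells.

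Ednra was present in both mural clusters. The cluster with the pericyte markers Abcc9, Vtn and Kcnj8 had 580, 490 and 427 CPM, and the cluster with the smooth muscle markers Acta2 and Myh11 had 397, 355 and 325 CPM. Another pericyte marker, Higd1b, was seen in 50% of cells of the former and 56.3% of the latter, and Myh11 in 51.0% and 99.5%. For Ednra the order naïve, day 7, day 14 was the same in both clusters, although within each cluster every interval of the ratio over naïve included 0. The pericyte-marker cluster lay above the other 1.46-fold (1.07 to 1.98) in naïve and 1.31-fold (1.02 to 1.69) at day 14, and at day 7 the fold of 1.38 (0.988 to 1.90) was within counting error.

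Outside mural cells Ednra was low. Fibroblasts came next with 32.5 (13.1 to 67.0), 28.5 (11.5 to 58.8) and 17.9 (8.95 to 32.1) CPM, followed by SGCs with 8.34 (5.93 to 11.4), 9.72 (6.81 to 13.5) and 10.1 (7.46 to 13.4) CPM. Fibroblasts and SGCs were separate in naïve only. Non-myelinating Schwann cells had 3 Ednra UMIs in naïve, or 15.5 CPM (3.21 to 45.4), which overlapped both, and none in the injured libraries, with limits of 20.2 and 8.42 CPM. The mural level was 55.4-fold (39.1 to 80.3), 40.1-fold (27.9 to 59.0) and 35.9-fold (26.3 to 50) that of SGCs. Per 100 UMIs of the mural marker Rgs5, SGCs had 229, 360 and 155 Ednra UMIs and mural cells 8.28, 7.67 and 6.28. The SGC ratios rested on only 17, 10 and 31 Rgs5 UMIs, and the part of RNA from mural cells in the SGC counts was not tested. Within SGCs the highest naïve level, 15.2 CPM, was in the cluster led by 2900052N01Rik and Ctnnd2, which was also the deepest, with 13.5 and 13.0 CPM in the injured libraries. Neurons had 1.17, 2.27 and 2.44 CPM, myelinating Schwann cells 1, 2 and 4 UMIs, and macrophages none.

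Ednrb encodes the type B receptor, which binds endothelin-1 and endothelin-3 alike. In SGCs it had 1813 CPM (1775 to 1852) in naïve, 2269 CPM (2221 to 2318) at day 7 and 2096 CPM (2055 to 2138) at day 14, from 8478, 8405 and 9951 UMIs. Day 7 was highest, naïve lowest, and no pair of intervals overlapped. The log2 ratio was 0.32 (0.28 to 0.37) at day 7 and 0.21 (0.17 to 0.25) at day 14.

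Nearly every SGC was positive, at 98.8%, 99.8% and 99.4%, and at 91.8%, 95.2% and 95.1% after thinning to 2000 UMIs. In fibroblasts, which had little Ednrb, the share was 2.74%, 1.67% and 4.90% at median depths of 2557, 3373 and 3382 UMIs. A single SGC held up to 133, 113 and 113 Ednrb UMIs, and 539, 384 and 507 cells had 5 or more.

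The SGC ratio was also read by the share of mitochondrial UMIs. SGCs with at most 10% numbered 95, 13 and 4, and had 2089, 1972 and 2050 CPM, with log2 ratios of -0.08 (-0.28 to 0.11) and -0.03 (-0.42 to 0.35), neither beyond counting error. Between 10 and 15% there were 346, 187 and 227 cells with 1902, 2687 and 2285 CPM, and between 15 and 20% there were 199, 208 and 310 cells with 1517, 1915 and 1934 CPM. Both upper steps were higher in the injured libraries, at 0.50 and 0.26 for the middle step and 0.34 and 0.35 for the upper one. In naïve SGCs the level fell from step to step, and the median mitochondrial share was 13.4%, 15.1% and 15.6% in the 3 libraries. These steps were chosen after the values had been seen, and the part of the mitochondrial share in the ratio was not tested.

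SGC clusters differed in level by more than the libraries did. The cluster led by Egr3 had 2806, 3098 and 2561 CPM, the cluster led by Bcan and Rlbp1 1708, 2294 and 2087 CPM, and the cluster led by 2900052N01Rik and Ctnnd2 1172, 1527 and 1541 CPM. All were higher at day 7 than in naïve, with log2 ratios of 0.14, 0.43 and 0.38. At day 14 the Egr3 cluster was below naïve, at -0.13 (-0.19 to -0.07), whereas the others stayed above it, at 0.29 (0.20 to 0.37) and 0.40 (0.31 to 0.48). The gate took 204 of 310, 133 of 211 and 196 of 351 cells of the Egr3 cluster as SGCs. Of the cluster led by 2900052N01Rik and Ctnnd2 it took 179 of 185, 132 of 134 and 146 of 157. The class level thus draws less fully on the cluster with the higher Ednrb. A cluster led by the interferon-response genes Ifit3b and Ifi27l2a, with 161, 37 and 27 cells, had 1384, 2328 and 1953 CPM. Its log2 ratios over naïve were 0.75 (0.60 to 0.90) and 0.50 (0.30 to 0.69). It contributed 14.5% of gated SGCs in naïve, 5.15% at day 7 and 2.40% at day 14, so a cluster with a naïve level below that of the whole class was commonest in the naïve library. The part of this shift in the class-wide ratio was not tested.

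A cluster of 77, 39 and 50 cells led by Pde10a and Sox4, which the markers left without a name, also carried Ednrb. Its level was 2707, 2642 and 2409 CPM, with positive cells at 94.8%, 97.4% and 96% and median depths of 2534, 3073 and 2977.5 UMIs. Neither ratio differed from naïve beyond counting error, at -0.03 (-0.23 to 0.16) and -0.17 (-0.35 to 0.01). Per 100 UMIs of the SGC marker Fabp7 it had 555, 588 and 871 Ednrb UMIs, against 20.6, 25.1 and 27.5 in gated SGCs as a whole. SGC clusters differed widely in this ratio, from 91.1, 117 and 109 in the Egr3 cluster to 8.42, 10.4 and 11.5 in the cluster led by 2900052N01Rik and Ctnnd2.

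Non-myelinating Schwann cells came next in the order, with 212 CPM (152 to 288) in naïve, 783 CPM (647 to 939) at day 7 and 379 CPM (318 to 449) at day 14. Day 7 was high, day 14 intermediate and naïve low, and no pair of intervals overlapped. The log2 ratio was 1.88 (1.36 to 2.43) at day 7 and 0.84 (0.32 to 1.38) at day 14, while SGCs exceeded this class 8.54-fold, 2.90-fold and 5.53-fold. Positive cells made up 25.7%, 54.7% and 36.7% at median depths of 1807, 2121 and 2602 UMIs. After thinning to 2000 UMIs they made up 26.5%, 55.9% and 26.6%, but thinning left out 65 of 101, 27 of 64 and 32 of 109 cells, so these shares describe only the deeper part of the class. Their median mitochondrial share was 9.43%, 11.5% and 12.4%, and its part in the ratio was not tested. Part of these cells lay in SGC clusters (24, 9 and 7 cells) and had 463, 1031 and 1129 CPM. The cells in clusters of their own class (77, 50 and 101) had 126 (74.4 to 198), 408 (297 to 546) and 327 (268 to 395) CPM, so naïve was also lowest there, and the injured libraries overlapped. At day 7 these sets held 28 and 45 of the 116 Ednrb UMIs of the class, and 5 cells outside both held the other 43. The SGC cluster gene Egr3 was also highest at day 7 in the class, at 72.5, 229 and 47.7 CPM. Of the 2 clusters of the class, counted with all their cells, the one led by Scn7a and Cadm2 (123, 76 and 130 cells) had day 7 and day 14 log2 ratios of 0.96 and 0.62, with intervals that excluded 0. The one led by Tnc and Btc had 6, 4 and 37 cells, with 87.3, 1232 and 384 CPM. The part of these shifts between clusters in the class-wide ratio was not tested. Per 100 Fabp7 UMIs the class had 32.3, 101 and 85.4 Ednrb UMIs, above the ratio of all gated SGCs in each library and below that of their Egr3 cluster, with intervals that overlapped the latter at day 7 and day 14.

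Mural cells had 143 CPM (109 to 185) of Ednrb in naïve, 56.8 CPM (37.5 to 82.7) at day 7 and 104 CPM (82.2 to 131) at day 14, from 59, 27 and 75 UMIs. Here day 7 was below naïve, and day 14 overlapped both. The log2 ratio was -1.34 (-2.05 to -0.66) at day 7 and -0.46 (-0.97 to 0.06) at day 14. The share of positive mural cells was 24.4%, 15% and 16.2%. Their median mitochondrial share was 10.2%, 12.2% and 12.8%, and its part in the ratios was not tested. Most of the signal was in the pericyte-marker cluster, with 400, 143 and 227 CPM, while the smooth muscle-marker cluster had 33.4, 29.8 and 35.6 CPM. In the pericyte-marker cluster both injured libraries were below naïve, at -1.49 (-2.40 to -0.65) and -0.82 (-1.39 to -0.25). Its Ednrb UMIs per 100 Fabp7 UMIs were 445 (229 to 950), 160 (68.3 to 394) and 250 (153 to 420), above the ratio of all gated SGCs. At day 7 the interval overlapped that of the Egr3 cluster of SGCs (112 to 123). The Fabp7 levels of the pericyte-marker cluster, 89.8, 89.1 and 90.7 CPM, rested on only 11, 10 and 24 UMIs. The part of RNA from SGCs in the mural values was not tested. Of mural cells with an Ednra UMI, 28.1%, 16.5% and 16.9% also had an Ednrb UMI, against 14.7%, 9.52% and 14.3% of those without, with overlapping intervals in each library. The former were deeper, at medians of 3609, 5288 and 3962 UMIs against 2382, 2488 and 2440, and as CPM their Ednrb was above that of the latter in naïve only, at 166, 49.9 and 86.8 against 65.0, 110 and 169.

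Endothelial cells had little Ednrb: 17.3 CPM (11.6 to 24.8), 18.0 CPM (11.8 to 26.1) and 16.6 CPM (12.0 to 22.5). The libraries did not differ beyond counting error, with log2 ratios of 0.05 (-0.76 to 0.86) and -0.06 (-0.77 to 0.68). Positive endothelial cells made up 7.27%, 10.3% and 11%, against 4.62%, 8.49% and 6.72% of macrophages at median depths of 2154, 4389 and 3657 UMIs, with overlapping intervals. Per 100 Fabp7 UMIs endothelial cells had 33.7 (21.3 to 51.9), 40.9 (25.1 to 64.9) and 21.6 (15.1 to 30.4) Ednrb UMIs, above the ratio of all gated SGCs in naïve and overlapping it in both injured libraries, and the part of free RNA in these counts was not tested. When the cells called doublets by Scrublet were kept, 64 UMIs in 209 cells gave a day 7 ratio of 1.26, so few added cells decided that value.

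Myelinating Schwann cells had 52.0, 64.0 and 54.0 CPM of Ednrb, with log2 ratios of 0.30 (0.04 to 0.57) at day 7 and 0.05 (-0.20 to 0.31) at day 14. The day 7 value rested on few cells: 11 gated cells outside the clusters of the class held 56 of its 296 Ednrb UMIs, against 11 of 200 UMIs in 7 such cells in naïve. Without them the levels were 49.7, 52.4 and 43.3 CPM and the day 7 ratio was 0.08 (-0.20 to 0.36), and over all cells of those clusters it was -0.15 (-0.41 to 0.11). At day 7 their level and that of mural cells overlapped. The cluster led by Mpp6 and Fos was highest among these cells, at 257, 133 and 206 CPM, and fell at day 7 with a log2 ratio of -0.95 (-1.36 to -0.55). The cluster led by Otop1 and Slit2 went the other way, from 19.1 to 33.9 CPM, at 0.83 (0.02 to 1.70). In the remaining clusters of the class the day 7 interval included 0. Macrophages had 30.7, 30.5 and 20 CPM and fibroblasts 9.29, 4.08 and 11.4 CPM, from at most 32 UMIs in a library.

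Neurons had 13.2 CPM (10.6 to 16.2) of Ednrb in naïve, 29.2 CPM (23.4 to 35.8) at day 7 and 37.7 CPM (32.6 to 43.3) at day 14. Naïve was low and the injured libraries overlapped, with log2 ratios of 1.15 (0.71 to 1.58) and 1.52 (1.15 to 1.89). The marker Fabp7 moved the same way in neurons, at 120, 232 and 273 CPM, and Ednrb per 100 Fabp7 UMIs was 10.9 (8.70 to 13.6), 12.6 (9.98 to 15.7) and 13.8 (11.8 to 16.0), below the ratio of all gated SGCs and close to that of the cluster led by 2900052N01Rik and Ctnnd2. The share of neurons with an Ednrb UMI was 41.4%, 41.7% and 64.2%, level between naïve and day 7, and 4.66%, 18.6% and 12.4% after thinning, which left out 8, 49 and 9 cells. The part of RNA from SGCs in the neuronal values was not tested. Neuronal depth was uneven, at medians of 72275, 2401 and 60167 UMIs, the median mitochondrial share was 8.22%, 10.9% and 8.07%, and the cluster led by the injury genes Sprr1a and Sox11 held 11, 133 and 45 cells. The Ednrb log2 ratios of that cluster were 1.52 and 0.82. They were 0.97 and 0.67 in the neuron cluster led by Tac1, and 1.52 and 1.20 in that led by Gm765. Each interval excluded 0, and Fabp7 was also higher than in naïve in each case. The part of the cluster shift in the class-wide ratio was not tested.

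**Figure D3:**
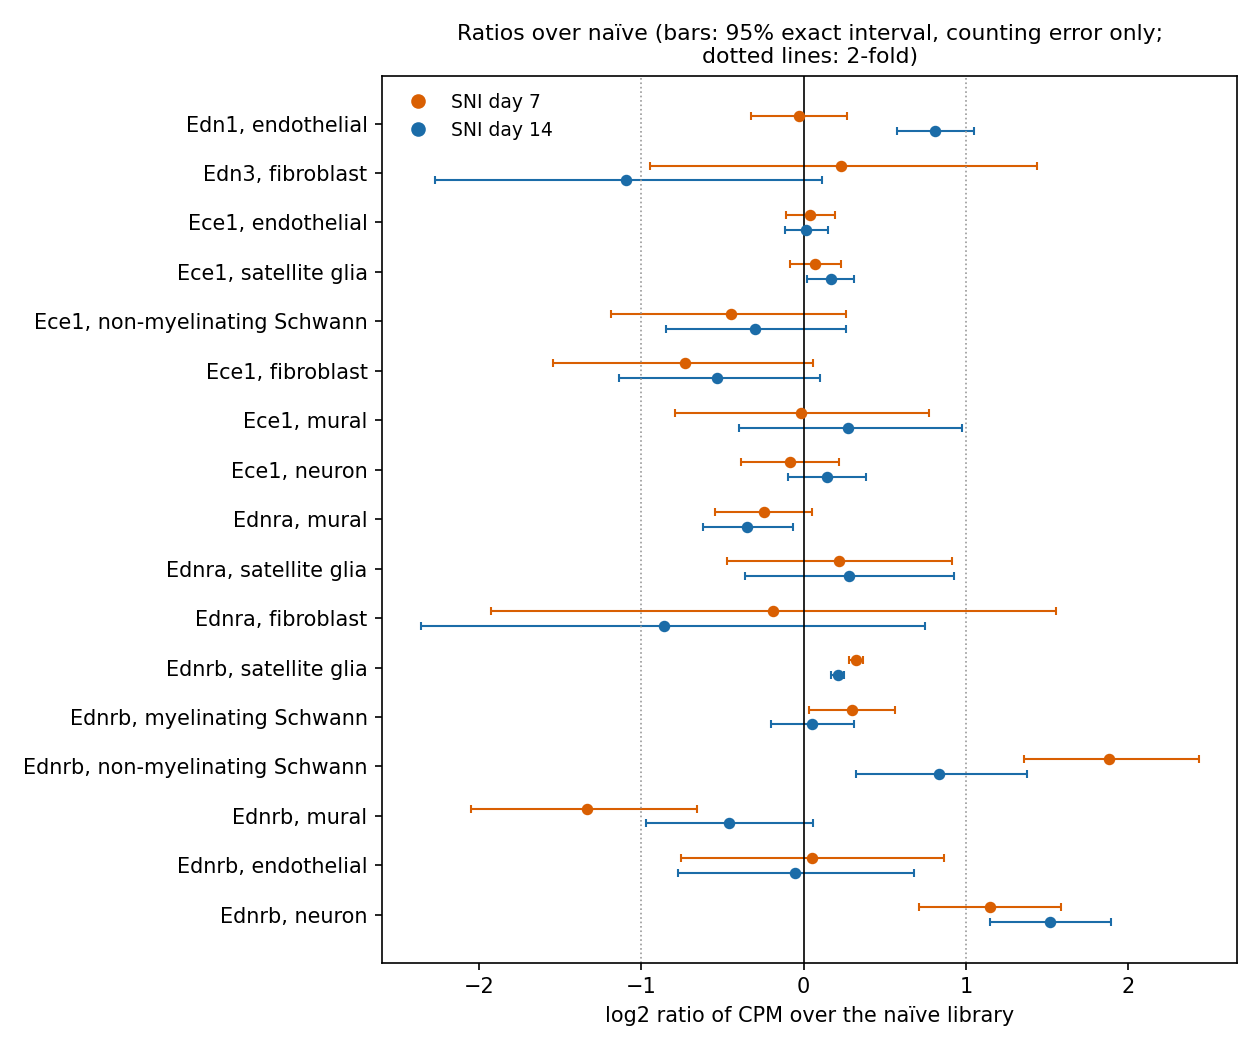
Log2 ratio of CPM over the naïve library (horizontal axis) for endothelin genes in the classes with the most UMIs, at day 7 and day 14, with bars for the exact 95% interval and dotted lines at 2-fold. Intervals for Ece1 in endothelial cells are near 0, Edn1 is raised at day 14 only, and Ednrb lies right of 0 in non-myelinating Schwann cells and neurons and left of it at day 7 in mural cells.

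Most changes were small against a 2-fold threshold, taken on log2 of CPM plus 1 for genes with at least 20 UMIs over both libraries. In SGCs 3 members could be read this way, and 0 passed at day 7, where 1.24% of all genes did, and 0 at day 14, where 1.79% did. In endothelial cells 0 of 3 passed at day 7 (all genes 2.37%) and 0 of 3 at day 14 (3.42%). In mural cells 1 of 3, Ednrb, was lower at day 7 (all genes 4.89%), a call lost with thinned shares (-0.54). At day 14, 0 of 3 passed in mural cells (5.49%). Fibroblasts had 0 of 2 at day 7 (8.08%) and 1 of 2, Edn3 with a lower level, at day 14 (8.91%), a call from 28 UMIs that was lost with a pseudocount of 5 CPM (log2 ratio -0.97). Non-myelinating Schwann cells had 1 of 2, Ednrb with a higher level, at day 7 (7.24%), a call lost with the looser gate (0.87). At day 14, 0 of 2 passed in this class (10.4%). Myelinating Schwann cells had 0 of 2 at both times (0.961% and 1.41%), as did macrophages (14.3% and 15.8%). In neurons Ednrb passed upward at both times, as 1 of 2 at day 7 (2.91%), where the call was lost with that pseudocount (0.91), and 1 of 3 at day 14 (3.51%), where the ratio was 0.93 with classes taken from clusters and 0.63 with each cell counted once. The 2 injured libraries were compared with the same naïve library, so their ratios share its error.

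Other genes of the pathway were followed as a list of 22: the remaining ligand, related proteases, G proteins, phospholipases, calcium release channels and regulators of the receptors. In SGCs 17 were read; 1 was lower at day 7 (Mme) and 0 passed at day 14, with median log2 ratios of -0.10 and 0.09 against -0.00 and 0.02 for all genes. In endothelial cells 0 of 18 passed at either time, with medians of 0.09 and 0.15 against -0.00 and 0.02. In mural cells 1 of 13 was higher at day 7 and 2 of 14 at day 14, with medians of 0.16 and 0.04 against -0.02 and 0.02. The phospholipase gene Plcb3, which acts downstream of Gq-coupled receptors, was among them at both times, with 17, 40 and 43.2 CPM. Prkca, for a protein kinase C, had 14.6, 18.9 and 47.3 CPM in mural cells and was past 2-fold at day 14 only. In naïve mural cells 3 UMIs give 7.29 CPM, so the naïve values of both genes rested on few UMIs.

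For these and the remaining classes, the shares of all genes past 2-fold are those given above. In neurons 2 of 20 were higher at day 7, Ecel1 at 4.83, 35.0 and 10.3 CPM and Mme at 1.17, 3.89 and 1.87 CPM, and 0 of 19 passed at day 14. In non-myelinating Schwann cells 1 of 10 was higher at day 7 (Plcb4, 36.3, 94.5 and 30.9 CPM) and 0 of 11 at day 14. In naïve cells of that class 3 UMIs give 15.5 CPM, so Plcb4 rested on few UMIs. Neuronal Mme lay near the pseudocount of 1 CPM. Unlike those of the members, the calls of pathway genes were not recomputed under other pseudocounts or minimums. Fibroblasts, myelinating Schwann cells and macrophages had 0 past 2-fold at either time. Ece2, for the related converting enzyme, had 66.0% of its summed CPM in neurons, at 13.0, 14.9 and 13.7 CPM. Nos3, which makes nitric oxide downstream of endothelial type B receptors, had 73.3, 64.5 and 82.4 CPM in endothelial cells, with overlapping intervals for naïve and each injured library.

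A list of 17 other vasoactive peptides, receptors and enzymes had 0 of 7 past 2-fold in endothelial cells at either time, 0 of 4 and 0 of 6 in mural cells, and 0 of 1 in SGCs. In fibroblasts 0 of 4 passed at day 7, and 1 of 5 was higher and 1 lower at day 14. In neurons 1 of 6 was lower at day 7 and 1 of 6 higher at day 14. In macrophages the only gene read was Calcrl, at day 14 alone, with a log2 ratio of 4.52. That value leans on the pseudocount of 1 CPM. In the 65 naïve macrophages 3 counts would already give 18.4 CPM, so a naïve level of that size could be missed. The shares over all genes are those given above for each class. Of 11 dissociation and immediate early genes, 2 of 9 were higher in mural cells at day 7, and 4 of 9 were higher and 1 lower at day 14, with medians of -0.13 and 0.54 and a summed level of 693, 808 and 1115 CPM. In fibroblasts 1 of 5 was higher and 1 lower at day 7, and 5 of 8 were higher and 1 lower at day 14, with medians of 0.62 and 1.28 and sums of 1101, 1293 and 2060 CPM. In endothelial cells 1 of 9 was higher and 2 lower at day 7, and 2 of 10 higher and 2 lower at day 14. Medians there were 0.29 and 0.60, whereas the sums fell, at 836, 694 and 677 CPM, with Hspa1b at 284, 51.9 and 34.1 CPM. In SGCs 1 of 10 and 1 of 11 were lower, with sums of 1241, 1236 and 1009 CPM. In non-myelinating Schwann cells 1 of 5 was higher and 2 lower at day 7, and 4 of 7 were higher and 2 lower at day 14. Medians there were -0.51 and 1.08, with sums of 1383, 1073 and 1418 CPM. In macrophages 4 of 9 were lower at day 7, and 2 of 10 were higher and 3 lower at day 14, with sums of 1414, 827 and 875 CPM. Myelinating Schwann cells had 1 of 11 lower at day 7 and 2 higher and 2 lower at day 14, and neurons 1 of 10 higher and 1 lower at day 7 and 2 of 10 higher at day 14. The part of dissociation in the endothelin ratios was not tested. Of 5 nerve injury genes, 2 of 5 were higher in neurons at day 7 and 3 of 5 at day 14, with medians of 0.96 and 1.10, and they were also higher outside neurons: 2 of 2 and 3 of 4 in SGCs, 2 of 3 and 3 of 4 in myelinating Schwann cells, 1 of 1 and 2 of 2 in non-myelinating Schwann cells, 2 of 3 in endothelial cells at day 14 and 1 of 1 in macrophages at day 7 but 0 of 1 at day 14. The part of RNA from neurons in these counts was not tested.

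Across 24 sums (8 classes in 3 libraries) the genes most like Edn1, Edn3, Ece1 and Ednrb were ranked by Pearson correlation of log2 CPM plus 1 among 14256 genes. For Edn1 they were Gimap5 (r = 0.99), Gm17322, Cyp2e1, 4930578C19Rik and AU021092, and for Edn3 they were Foxd1 (0.97), Mrc2, Svep1, Ptgfr and Tmem45a. Ece1 was most like Grb10 (0.92), Fat4, Plat, Arap2 and Hoxb7, and Ednrb most like Lgr5 (0.94), Slc9a3r1, Zfp24, Shank2 and Pex11a. Among the endothelin genes themselves the highest values were 0.55 for Edn3 with Ednra and 0.55 for Ece1 with Edn1, and the receptors Ednra and Ednrb had 0.10. The sums share classes, libraries and depth and are not independent.

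The authors' files name the mm10 genome, and positions were taken from GENCODE vM21 on GRCm38, in which 30934 of the 31053 gene identifiers were found. Edn1 (ENSMUSG00000021367) lies on chromosome 13 from 42301476 to 42307990 on the plus strand, and Edn3 (ENSMUSG00000027524) on chromosome 2 from 174760619 to 174784042, also plus. Ece1 (ENSMUSG00000057530) is on chromosome 4 from 137862237 to 137965229 on the plus strand. Ednra (ENSMUSG00000031616) spans 77663031 to 77724464 of chromosome 8 and Ednrb (ENSMUSG00000022122) spans 103814625 to 103844402 of chromosome 14, both on the minus strand. All are protein-coding genes on separate chromosomes. The annotation places an antisense gene on the other strand of Edn1 (Gm47118) and of Ece1 (Gm13012), and a processed transcript opposite Ednra (4933431K23Rik). Whether reads of the other strand entered the counts is not stated.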

How the data were processed

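The deposited values are UMI counts, which the authors made with Cell Ranger 3.0.2 on mm10, and no other normalization preceded the CPM. The cell filter (500 genes or more, 20% mitochondrial UMIs or less) was followed by removal of the doublets that Scrublet called per library at an expected rate of 5%. A cell received a class with at least 3 of the class's own markers and at least 2 more than of any other of 13 classes, of which 11 had cells; these thresholds were set after the data were seen. For clusters, 2000 variable genes without the endothelin genes gave 30 principal components, 15 neighbours and Leiden resolution 1; their leading genes serve as labels. Tools were Python 3.11.15, numpy 2.4.6, scipy 1.17.1, pandas 2.3.3, scanpy 1.11.5, leidenalg 0.10.2, matplotlib 3.10.9, and R 4.3.3 with edgeR 4.0.16.

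The members and the gene lists were chosen with earlier results of these data known. Genes named were the 5 members in every class, pathway list genes past 2-fold, and for Edn1, Edn3, Ece1 and Ednrb the 5 genes of highest correlation, over classes with at least 20 cells and genes with at least 50 UMIs; Ece2, Nos3, Calcrl, Fabp7, Rgs5, cluster labels and vascular markers were named after their values were seen. Alternatives were tried for the cell filter, doublets, the class of a cell, scaling (edgeR TMM), depth, counting each cell once, the pseudocount (0.5 or 5 CPM in place of 1) and the minimum of UMIs (10 or 50 in place of 20).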

Additional observations from a re-analysis of the deposited data

Results flagged for a closer look

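For Ednrb, the ratio of day 7 over naïve had opposite signs in different classes, each with an interval that excluded 0. The log2 ratio was 0.32 in SGCs, 0.30 in myelinating Schwann cells, 1.88 in non-myelinating Schwann cells and 1.15 in neurons, and -1.34 in mural cells. In SGCs with at most 10% mitochondrial UMIs it had the other sign, at -0.08 (-0.28 to 0.11), from 95 naïve and 13 day 7 cells. The value in myelinating Schwann cells was 0.08 (-0.20 to 0.36) without 7 naïve and 11 day 7 cells that lay outside the clusters of the class. In non-myelinating Schwann cells it was 0.87 with the looser gate and 0.96 in the larger cluster of the class, and 5 of the 64 day 7 cells held 43 of the 116 UMIs. In mural cells it was -0.54 with thinned shares. In the neurons, whose median depths were 72275 and 2401 UMIs, it was 0.01 with each cell counted once and 1.99 with shares thinned to 2000 UMIs, and Fabp7 moved with Ednrb from 120 to 232 CPM. The difference between classes was not tested, since each condition has 1 library. Of the mural cells, 123 were naïve and 100 from day 7.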

How the results depend on the processing

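No paired analysis was possible because only 1 library represents each condition, and for the same reason leaving out replicates was not run. Depth limits Edn3 most, with 64 UMIs in all kept cells, and the intervals hold no difference between mice. The ratios of the 5 genes in their main classes and of Ednrb in endothelial cells were recomputed under 13 alternatives each; of the 156 values 135 stayed within the main interval, 17 moved and 4 changed direction. A change of direction was counted only for ratios whose main interval excluded 0. Of the 17, 3 also had the other sign, all at day 7: Ednra in mural cells with each cell counted once, and Edn1 in endothelial cells with cells or with thinned shares. Edn1 in endothelial cells at day 14 ranged from 0.69 to 0.91. For Ednrb in mural cells, non-myelinating Schwann cells and neurons, 64 of 78 stayed within it and 14 moved, none to the other direction. Calls past 2-fold were lost in some: the smallest day 7 values were -0.54 in mural cells and 0.0116 in neurons (shares) and 0.87 in non-myelinating Schwann cells (looser gate), whose day 14 value fell to 0.00378 with thinned shares. In neurons the day 14 value fell to 0.93 with clusters and 0.63 with each cell counted once. Edn3 in fibroblasts at day 14 ranged from -1.92 to -0.0956, and its 2-fold call was lost with a pseudocount of 5 CPM (-0.97) or at least 50 UMIs.

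With 1000 genes or more and 10% mitochondrial UMIs or less, the log2 ratio of Ednrb in SGCs was -0.0855 at day 7 (13 cells against 92) and -0.0294 at day 14 (4 cells), opposite to the main direction with intervals that included 0, and that of Ednra in mural cells was -0.87 and -0.82. With the 10% limit alone, which was added after the data were seen, Ednrb had -0.0834 and -0.0274 and Ednra -0.87 and -0.85. Other alternatives added then were the 1000-gene minimum alone, leaving out the highest cell, the cluster split of myelinating Schwann cells, and leaving mitochondrial UMIs out of the total. With no cell filter Ednrb in SGCs had 0.26 and 0.10, and with a stricter gate 0.40 at day 7. With each cell counted once, Ednrb in SGCs had 0.0146 and 0.0101, Ednra in mural cells 0.13 and -0.0137, Edn1 in endothelial cells 0.50 at day 7 and Ece1 0.21 at day 14. With shares thinned to 2000 UMIs, Ednrb in SGCs had 0.0516 and 0.0506 and Edn1 0.33 at day 7; nearly every SGC is positive, so a share there has little room to rise. With Scrublet cells kept, Ednrb in endothelial cells had 1.26 at day 7. Apart from that limit of shares, the cause was not tested.

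The number of genes past 2-fold depended on the minimum of UMIs and the pseudocount, which change the genes tested and the weight of low counts. From 139 in SGCs at day 7 it went to 217 with at least 10 UMIs, 48 with 50 and 19 with a pseudocount of 5 CPM, and from 205 at day 14 to 106 with 50 and 32 with 5 CPM. In endothelial cells 231 became 443, 72 and 76 at day 7, and 350 became 566, 158 and 111 at day 14. In mural cells 324 became 752 with 10 and 50 with 50 UMIs at day 7, and 412 became 872, 93 and, with 5 CPM, 254 at day 14. In fibroblasts 351 became 965 and 50 at day 7, and 585 became 1257 and 127 at day 14.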
